A study of Homo sapiens with 3 samples.

Results

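YAP1, its paralogue WWTR1 (which encodes TAZ), the DNA-binding partner TEAD1 and 7 genes that YAP, TAZ and TEAD proteins are known to switch on were followed through the 3 RNA libraries of the study. The members were taken by gene symbol, 10 of the 19049 genes in the deposited table, and all 10 were found there and passed the filter on low values: their level averaged over the libraries was 1 RPKM or more (reads per kilobase of gene model, scaled to the size of the library). CTGF and CYR61 are listed under these symbols, and are now also called CCN2 and CCN1. The cells were of MDA-MB-231, a widely used line from a human breast cancer with a basal-like and mesenchymal character, grown in DMEM with fetal bovine serum. In all libraries the cells' own KAP1 had been depleted by a short hairpin RNA, as the sample titles give it, and a form of KAP1 was put back. KAP1, the product of TRIM28, is a corepressor that zinc finger proteins bring to chromatin. The wt library came from cells with wild-type KAP1, the S473A library from cells in which the serine named there was replaced by alanine, a residue no kinase can phosphorylate, and the S473D library from cells with aspartate in its place, whose negative charge imitates a phosphate. The vector, the promoter that drives the re-expressed forms and whether the lines were clones or pools are not stated in the labels.

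YAP and TAZ are transcriptional coactivators without a DNA-binding domain of their own. In the Hippo pathway the kinases MST1 and MST2 (STK4 and STK3) activate LATS1 and LATS2, which phosphorylate YAP and TAZ and so keep them in the cytoplasm. When the kinases are quiet, in spread cells, on stiff matrix or at low density, YAP and TAZ enter the nucleus and bind TEAD proteins at enhancers and promoters. Mesenchymal breast cancer lines such as MDA-MB-231, which carries a disrupted NF2 gene, are known for high YAP and TAZ activity. Their control is largely exerted on the proteins, which RNA levels do not report.

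TEAD proteins bind the motif GGAATG, which reads CATTCC on the other strand. It was searched on both strands in RefSeq promoter windows of 300 bases that span the transcript start, with the larger part of each window before it (build GRCh38.p14). Windows were found for 6 of the 10 members, and 5 of these hold the motif: CTGF, ANKRD1, YAP1, AMOTL2 and AXL. AMOTL2 and AXL have 2 windows each, and the motif is in 1 of them. WWTR1 has a window at each of 2 starts and the motif in neither, and TEAD1, CYR61, ASAP1 and CRIM1 had no window. Of all 35116 windows 14% hold the motif, 1.37% hold it at least 2 times and 0.128% at least 3 times. These are shares of windows, while the 5 of 6 above counts genes, so they are not directly comparable. The CTGF and ANKRD1 stretches are shown because these targets hold the most matches and stood on opposite sides of wt in the S473D library, and the shorter ones show the single matches of the others. Sequences run 5′ to 3′ along the gene's strand with the motif in capitals.
CTGF: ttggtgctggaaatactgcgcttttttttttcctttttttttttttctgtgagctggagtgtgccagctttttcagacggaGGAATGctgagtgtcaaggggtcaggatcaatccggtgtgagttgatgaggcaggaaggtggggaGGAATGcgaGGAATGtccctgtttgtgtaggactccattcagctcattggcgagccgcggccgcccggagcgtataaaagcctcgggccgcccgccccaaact
ANKRD1, distal match: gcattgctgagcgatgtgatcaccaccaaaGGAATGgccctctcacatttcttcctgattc
ANKRD1, proximal match: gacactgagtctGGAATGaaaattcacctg
YAP1: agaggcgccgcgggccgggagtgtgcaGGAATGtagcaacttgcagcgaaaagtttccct
AMOTL2: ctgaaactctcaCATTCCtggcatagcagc
AXL: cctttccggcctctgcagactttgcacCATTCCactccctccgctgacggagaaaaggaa

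The CTGF stretch lies at chr6:131951374-131951622 on the minus strand, in no exon of the GENCODE annotation (release 29, GRCh38), and its matches begin 169, 104 and 95 bases before the start. The ANKRD1 stretches lie at chr10:90921277-90921337, outside any annotated transcript, and at chr10:90921198-90921227, inside an exon of a longer ANKRD1 transcript, both on the minus strand, with matches 220 and 128 bases before the start. The YAP1 stretch lies at chr11:102110258-102110317 on the plus strand, inside an exon of the antisense transcript AP001527.2, and its match begins 162 bases before the start. In AMOTL2 the match, 69 bases before the second of 2 listed starts, lies at chr3:134374499-134374528 on the minus strand, in an exon of other AMOTL2 transcripts. In AXL it lies 212 bases before the second of 2 starts, at chr19:41226516-41226575 on the plus strand, in an AXL intron. The AP-1 motif TGACTCA, which on the other strand reads TGAGTCA and is held by 4.95% of all windows, was in none of the members' windows. In a published signature of 22 YAP and TAZ targets, which includes the 7 targets followed here, 16 genes had a window and 9 of their 18 windows hold the TEAD motif. The motif was in 8 of 32 windows of Hippo pathway genes and in 3 of 20 of a further list of reported YAP and TAZ targets. It was in 4 of 24 of a list of MRTF and SRF targets and factor genes. The lists overlap: LATS2, PTPN14, AMOTL2 and NUAK2 hold the motif in both the signature and the Hippo list. A match describes these letters and does not show that a TEAD protein binds there, and the study's files do not measure binding.

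**Figure D1:**
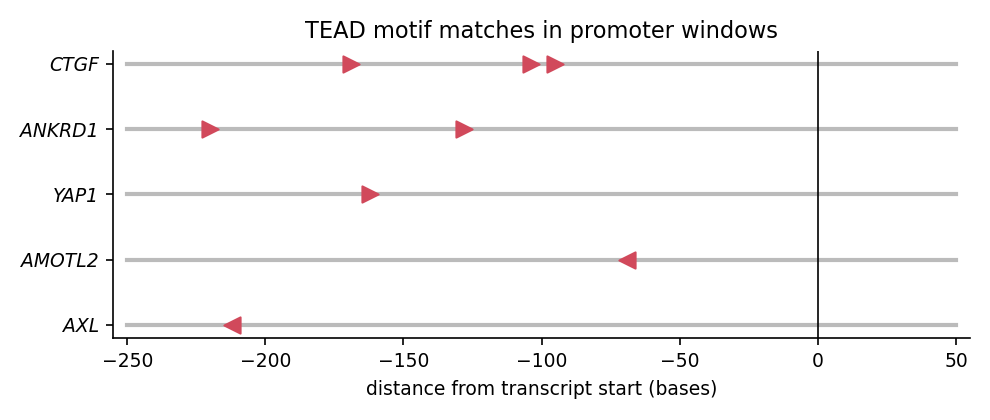
Matches to the TEAD motif in the promoter windows of 5 members, by distance in bases from the transcript start (vertical line at 0). Grey bars are the windows, and triangles mark where a match begins and point along its strand: CTGF (now CCN2) has 3 matches, ANKRD1 has 2, and YAP1, AMOTL2 and AXL have 1 each.

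The deposited table gives 1 value per gene and library, the log2 of RPKM with 0.1 added, and each form of KAP1 has 1 library. There is thus no replicate error and no test of a difference, and every comparison below describes a pair of libraries, whose difference may be technical. The spacing of low values gave an estimated depth of 25700000 counted reads in the wt library, with 29400000 in S473A and 23900000 in S473D. Intervals beside ratios are exact 95% intervals from the reads these depths imply, and cover counting error only. Differences are on the log2(RPKM + 1) scale and were taken over 11578 genes. Counts of genes at least 1.5-fold or 2-fold apart use that scale, which understates the change of genes near or under 1 RPKM, while printed ratios are of RPKM. Their median was 0.00 between S473A and wt and -0.10 between S473D and wt. RPKM summed over all genes came to 330667 with wt KAP1, 330916 with S473A and 393381 with S473D, so that the S473D library stood apart on this sum. TRIM28 stood at 28.7 RPKM with wt KAP1, 32.3 with S473A and 25.6 with S473D, values that do not separate the cells' own transcript from the re-expressed one. The markers of the line were present, VIM at 673 to 740 RPKM, CD44 at 119 to 156 and EGFR at 49.5 to 62.6, while ESR1, PGR, CDH1 and EPCAM stayed under 0.34 RPKM in each library. ERBB2, the fifth gene listed as absent or low in the line, stood at 7.94 RPKM in wt, with 7.50 in S473A and 5.34 in S473D. Of the markers of fibroblasts, endothelium and leukocytes found in the table, all but COL1A1 (1.63 to 1.66 RPKM) had a mean under 1 RPKM.

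All 10 members were well expressed, and their order of level was nearly the same in the 3 libraries apart from ANKRD1. In wt, CYR61 was highest at 297 RPKM, followed by AXL at 123, CTGF at 95.6 and CRIM1 at 85.2. YAP1 stood at 52.5, AMOTL2 at 38.0, ANKRD1 at 35.5, TEAD1 at 32.6, ASAP1 at 30.9 and WWTR1 at 19.3. The S473A library gave the same order. In S473D, ANKRD1 stood in the third place instead of the seventh, above CTGF and CRIM1, and the other 9 kept their order. With no replicates it cannot be said which neighbours in these orders differ beyond the spread of cultures.

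**Figure D2:**
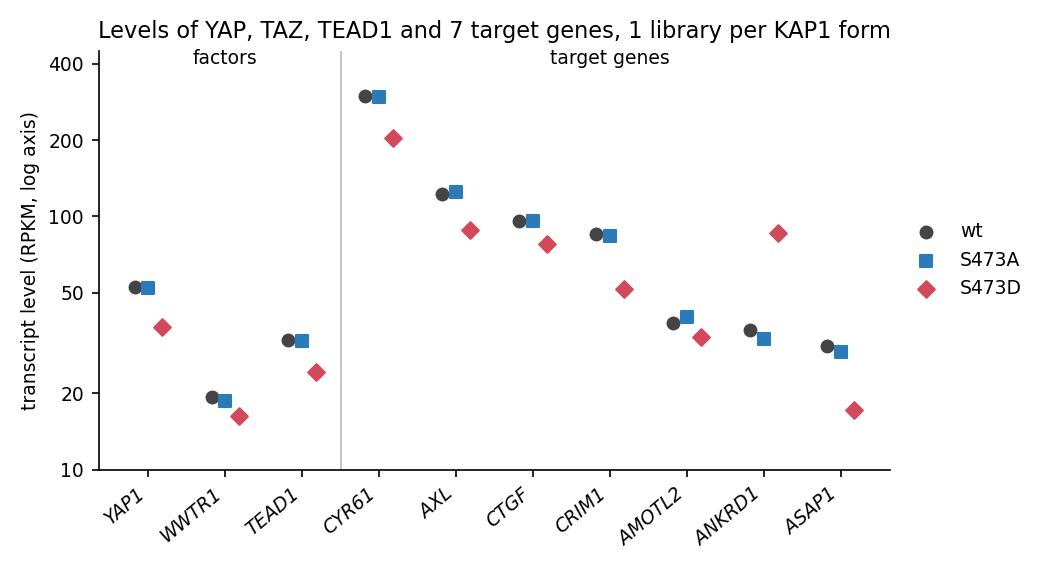
Transcript levels in RPKM (log axis) of the 3 factors and the 7 target genes, 1 point per library, with circles for wt, squares for S473A and diamonds for S473D. The wt and S473A points lie close together, the S473D points lie below them in 9 genes, and ANKRD1 stands at 85.9 RPKM in S473D against 35.5 in wt.

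Where 3 levels follow a gene without labels below, they are in the order wt, S473A, S473D. The coactivator and TEAD genes were lower in S473D than in both other libraries. YAP1 stood at 52.5 RPKM with wt KAP1, 52.0 with S473A and 36.7 with S473D. It was 1.43-fold higher in wt than in S473D (interval 1.38 to 1.48). WWTR1 stood at 19.3, 18.7 and 16.2 RPKM, and was 1.19-fold higher in wt than in S473D (interval 1.12 to 1.26). YAP1 was thus the more abundant of the pair in every library, with 2.72 times the RPKM of WWTR1 in wt, 2.78 times in S473A and 2.26 times in S473D. Their summed level was 71.8 RPKM with wt KAP1, 70.7 with S473A and 52.9 with S473D. In bulk RNA, fewer cells that express a gene and less RNA per cell cannot be told apart.

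TEAD1, which brings YAP and TAZ to DNA, stood at 32.6 RPKM with wt KAP1, 32.2 with S473A and 24.4 with S473D, and was 1.34-fold higher in wt than in S473D (interval 1.25 to 1.43). It was the most abundant of the 4 TEAD genes, with 47.9% of their summed RPKM with wt KAP1, 45.3% with S473A and 45.8% with S473D. TEAD4 followed the same course, at 16.8, 17.2 and 11.4 RPKM. TEAD3 differed from the others, with 14.8 RPKM with wt KAP1, 17.3 with S473A and 14.1 with S473D, so that S473A was the high library and wt and S473D lay close together. TEAD2 was low, at 3.89, 4.33 and 3.37 RPKM. Summed over the 4 genes, TEAD transcripts came to 68.1 RPKM with wt KAP1, 71.0 with S473A and 53.2 with S473D. Of the Vestigial-like cofactors, which compete with YAP for TEAD, VGLL4 stood at 7.96, 8.37 and 6.65 RPKM and VGLL3 at 2.60, 2.68 and 3.12.

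CTGF and CYR61 are the most widely used readouts of YAP activity and encode secreted matricellular proteins that bind integrins and growth factors. CTGF stood at 95.6 RPKM with wt KAP1, 96.2 with S473A and 77.8 with S473D, and was 1.23-fold higher in wt than in S473D (interval 1.18 to 1.28). CYR61 stood at 297 RPKM with wt KAP1, 295 with S473A and 204 with S473D, and was 1.46-fold higher in wt than in S473D (interval 1.42 to 1.49). The S473D library was thus the low one for both, and the wt and S473A values differed by less than counting error allows to tell. CYR61 had 3.11 times the RPKM of CTGF in wt, 3.07 times in S473A and 2.62 times in S473D. The related NOV, of the same family, ran the other way at 7.32, 7.35 and 10.9 RPKM, and WISP1 and WISP2 were under 0.1 RPKM in all libraries.

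ANKRD1 encodes a nuclear and sarcomeric ankyrin repeat protein and is, with CTGF and CYR61, a standard YAP reporter. It was the member that went against the rest, at 35.5 RPKM with wt KAP1, 32.9 with S473A and 85.9 with S473D. The S473D library was the high one, 2.42-fold above wt (interval 2.29 to 2.56) and 2.61-fold above S473A. S473A was slightly below wt, with a ratio of 0.926 (interval 0.868 to 0.988). Among the 11578 genes, 31 had a larger increase from wt to S473D. The ratio of ANKRD1 to CTGF was 0.372 with wt KAP1, 0.342 with S473A and 1.10 with S473D. Its relatives ANKRD2 and ANKRD23 were low, the first at or under 0.029 RPKM and the second between 1.08 and 1.16.

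ASAP1, an ARF GTPase-activating protein that remodels actin and membrane at invasive adhesions, was the member with the lowest difference. It stood at 30.9 RPKM with wt KAP1, 29.2 with S473A and 17.3 with S473D, and was 1.79-fold higher in wt than in S473D (interval 1.71 to 1.88). Between S473D and wt, 49 of the 11578 genes (0.423%) had a lower difference. With trends on transcript length and GC content removed, as described below, 1.52% of genes did. S473A also lay below wt by a small step, with a ratio of 0.946 (interval 0.910 to 0.983). The paralogue ASAP2 stood at 17.3, 16.2 and 13.2 RPKM and ASAP3 at 2.26, 2.09 and 1.42, so that S473D was the low library for all 3 genes.

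CRIM1, a transmembrane protein that binds bone morphogenetic proteins, stood at 85.2 RPKM with wt KAP1, 83.8 with S473A and 51.8 with S473D, and was 1.64-fold higher in wt than in S473D (interval 1.60 to 1.69). AXL, a receptor tyrosine kinase linked to invasion and drug tolerance, stood at 123 RPKM with wt KAP1, 125 with S473A and 87.9 with S473D, and was 1.40-fold higher in wt than in S473D (interval 1.36 to 1.43). Both were low in S473D alone. GAS6, the ligand of AXL, stood at 61.5, 63.6 and 43.8 RPKM, so that the ratio of receptor to ligand transcript was 2.0, 1.97 and 2.01. The other receptors of the family were far lower, TYRO3 at 5.58, 6.19 and 5.57 RPKM and MERTK at 4.0, 3.81 and 3.73.

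AMOTL2, an angiomotin that holds YAP outside the nucleus and is itself a YAP target, had the smallest difference between S473D and wt. It stood at 38.0 RPKM with wt KAP1, 39.9 with S473A and 33.5 with S473D, and was 1.14-fold higher in wt than in S473D (interval 1.09 to 1.19). S473A lay above wt, with a ratio of 1.05 (interval 1.01 to 1.09). Its paralogue AMOTL1 stood at 11.9, 11.3 and 9.29 RPKM and AMOT at 1.18, 1.34 and 1.23.

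Between S473A and wt the members hardly differed. The differences ran from -0.11 for ANKRD1 to 0.07 for AMOTL2 with a median of -0.02. Below 0 were 7 of the 10, and 50.2% of all genes tested. For 7 members the counting interval of the ratio included 1, and the exceptions were ANKRD1 and ASAP1, lower in S473A, and AMOTL2, higher. The share of all genes whose interval included 1 was not computed. None of the 10 was at least 1.5-fold apart, where 0.242% of all genes tested were.

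Both comparisons with wt share its 1 library. Between S473D and wt, 9 of 10 members were lower and 1 was higher, where 60.7% of all genes tested were lower. The members' median difference was -0.44, against -0.10 for all genes. In all 10 the counting interval of the ratio, which covers counting error only, lay wholly on 1 side of 1. The share of all genes with such an interval was not computed, so this count is not set apart from the library as a whole. ASAP1 (-0.80) and CRIM1 (-0.71) were at least 1.5-fold lower, a size that 3.23% of all genes reached. ANKRD1 (1.25) was at least 1.5-fold higher, as were 6.82% of all genes, and it was also past 2-fold, where 0.993% of genes stood. The other 7 lay between -0.54 for CYR61 and -0.18 for AMOTL2, under the 1.5-fold size. Below the median of all genes lay 9 of the 10. Of 7 luminal epithelial markers 4 were under 1 RPKM. In S473D, KRT8 (131, 126 and 178 RPKM) and KRT18 (171, 169 and 188) were higher, while GATA3 (1.72, 1.83 and 1.45) was lower. The summed luminal level, nearly all from KRT8 and KRT18, was 304, 297 and 368 RPKM. The line's own markers VIM (738, 740 and 673 RPKM), CD44 (156, 148 and 119) and EGFR (59.6, 62.6 and 49.5) were lowest in S473D. The part of these marker levels in the members' differences was not tested.

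The comparison of S473D with S473A does not use wt, but shares the S473D library with the one before. ASAP1 (-0.73) and CRIM1 (-0.68) were at least 1.5-fold lower and ANKRD1 (1.36) at least 1.5-fold higher, 3 of 10 members where 9.85% of all genes were that far apart in either direction. Centring the differences on the median of all genes, or scaling by a trimmed mean of log ratios, put CRIM1 just under that size. Either left 2 members past it. With trends on length and GC content removed, as described below, ANKRD1 (1.05), ASAP1 (-0.64) and CYR61 (-0.61) were past it and CRIM1 (-0.52) was not. YAP1 (-0.49), CYR61 (-0.53) and AXL (-0.50) had differences close to those from wt.

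**Figure D3:**
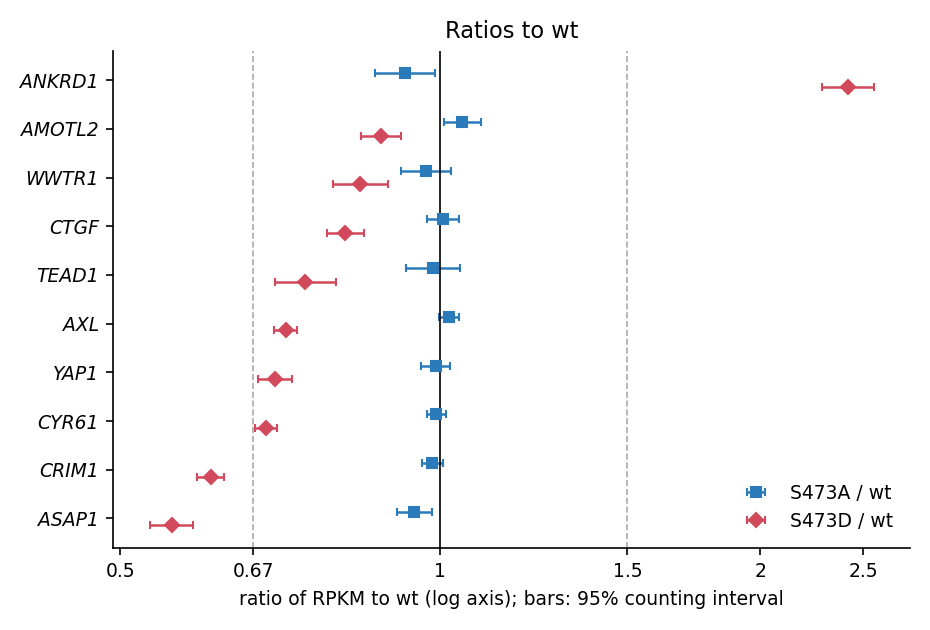
Ratios of RPKM to wt (log axis) for S473A (squares) and S473D (diamonds), with exact 95% intervals for counting error, 1 library per form. Dashed lines mark 1.5-fold in either direction: ASAP1, CRIM1 and ANKRD1 lie past them in S473D and no member does in S473A.

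Transcript length and base composition moved with the S473D library as a whole. Genes were put into 10 bins of nearly equal size by transcript length. The median difference between S473D and wt was 0.37 in the bin of the shortest transcripts (up to 1322 bases) and -0.27 in that of the longest (from 7300 bases). Between S473A and wt both medians were 0.00. ANKRD1 has a transcript of 1979 bases, shorter than the median of 3239, while ASAP1 (6344 bases), CRIM1 (5912), YAP1 (5398), WWTR1 (5030), AXL (4737) and AMOTL2 (4521) are longer. CTGF (2339), CYR61 (2290) and TEAD1 (2544 for the transcript used, 8477 for its longest) fall in the bin of 2262 to 2716 bases, whose median was -0.05, and all 3 lay below its lower quartile of -0.25.

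With smooth trends on length and GC content removed, the difference between S473D and wt was 0.95 for ANKRD1, -0.71 for ASAP1, -0.61 for CYR61, -0.54 for CRIM1, -0.51 for TEAD1 (-0.33 with its longest transcript) and -0.44 for YAP1. That left ANKRD1 at least 1.5-fold higher, where 1.70% of genes were, and ASAP1 and CYR61 at least 1.5-fold lower, where 3.31% were, while CRIM1 no longer reached that size. CTGF (-0.32), WWTR1 (-0.25) and AXL (-0.24) stayed below 0. AMOTL2 changed sign to 0.07 on that scale, where the median of all genes was -0.10, and 8 of the 10 members lay below that median. The part of length, composition or RNA quality in these differences was not tested further.

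**Figure D4:**
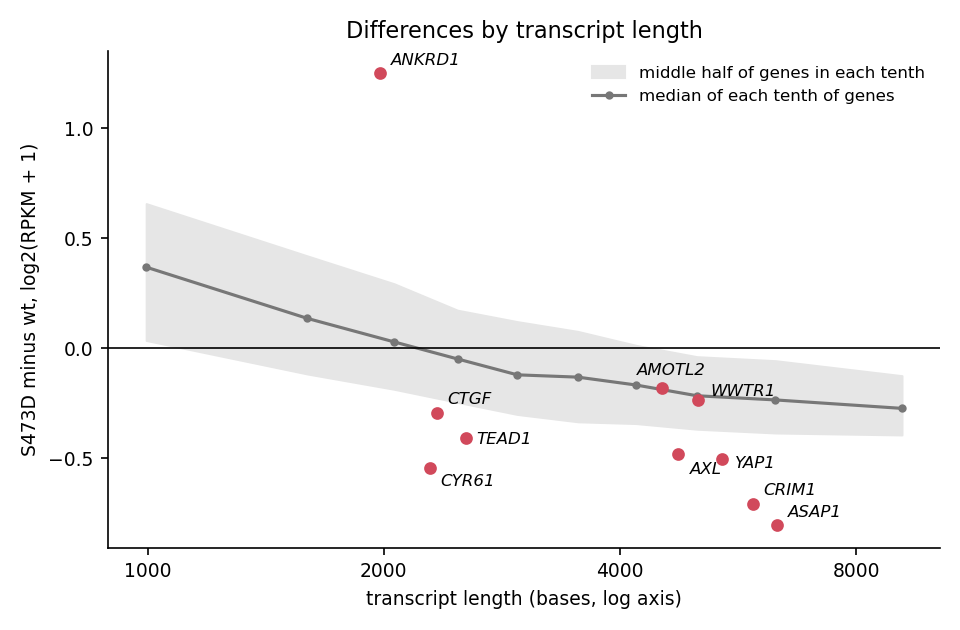
Difference between S473D and wt on log2(RPKM + 1) by transcript length in bases (log axis). The grey line joins the medians of genes in 10 bins of length, the band runs from the lower to the upper quartile of each bin, and red points are the 10 members: ANKRD1 lies above the band, 7 members lie below it, and AMOTL2 and WWTR1 lie within it.

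In 3 of 4 wider lists most genes were lower in S473D than in wt, as were 60.7% of all genes tested. The lists, the published signature among them, were written from general knowledge of the pathway. Of 29 genes of the Hippo pathway, which include the signature genes AMOTL2, LATS2, PTPN14 and NUAK2, 28 passed the filter. Between S473D and wt 25 of these were lower and 3 higher, with a median of -0.31 (-0.19 with the trends removed) against -0.10 for all genes. Their lowest were the kinase gene MAP4K4 (23.1 RPKM in wt, 22.0 in S473A, 13.4 in S473D), which can activate LATS, and the KIBRA gene WWC1 (13.3, 13.5 and 8.35 RPKM), a scaffold for it. These were the 2 genes of the list at least 1.5-fold lower, against 3.23% of all genes, and none was as much higher, against 6.82%. The highest were the scaffold gene FRMD6 (50.1, 48.9 and 51.9 RPKM) and AMOT.

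The core kinases had smaller differences. LATS1 stood at 6.35 RPKM with wt KAP1, 6.29 with S473A and 4.60 with S473D, and LATS2, which is also a YAP target, at 8.04, 7.75 and 6.16. STK4 stood at 23.0, 23.5 and 19.7 RPKM, and STK3 at 5.94, 5.60 and 6.04. S473D was the low library for LATS1, LATS2 and STK4 but not for STK3. NF2 (merlin) stood at 4.33, 4.80 and 4.01 RPKM. Between S473A and wt the list had a median of 0.01, with 15 higher and 13 lower, from -0.11 for BTRC and -0.09 for NUAK2 to 0.12 for NF2 and 0.10 for AMOT.

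The published signature of 22 targets includes the 7 targets above and 15 other genes, all of which passed the filter. Of those 15, 11 were lower in S473D than in wt and 4 higher, with a median of -0.33 (-0.17 with the trends removed). The Golgi protein gene FJX1 (35.4, 34.8 and 24.9 RPKM) and ARHGEF17 (5.58, 5.64 and 3.75) had the lowest differences on log2(RPKM + 1). IGFBP3, which binds insulin-like growth factors, was the highest at 22.6 RPKM with wt KAP1, 22.8 with S473A and 30.6 with S473D. On the log2(RPKM + 1) scale none of the 15 was 1.5-fold apart, where 6.82% of all genes were that much higher and 3.23% lower. By RPKM alone RBMS3, near the filter at 1.32, 1.30 and 0.677 RPKM, was 1.95-fold higher in wt than in S473D (interval 1.59 to 2.41). The other 3 above wt were NT5E (128, 131 and 141 RPKM), F3 (73.9, 71.2 and 78.1) and GADD45A. The remaining 9 were MYOF (-0.33), LATS2 (-0.34), FOXF2 (-0.30), CCDC80 (-0.33), DOCK5 (-0.25), PTPN14 (-0.41), NUAK2 (-0.39), TGFB2 (-0.37) and RBMS3 (-0.47). With the trends removed F3 (-0.14) and GADD45A (-0.17) changed sign, while IGFBP3 (0.40) and NT5E (0.16) did not. Over all 22 the median between S473A and wt was -0.01, and the ends were TGFB2 (-0.16) and FOXF2 (0.16).

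A further list of 19 genes described as YAP or TAZ targets in various cells did not share this direction. Of the 16 that passed the filter 9 were higher in S473D than in wt and 7 lower, with a median of 0.06 (0.15 with the trends removed). INHBA, an activin subunit gene, stood at 1.85 RPKM with wt KAP1, 2.81 with S473A and 3.47 with S473D, and the endothelin gene EDN1 at 8.20, 8.52 and 12.9. These were the 2 of 16 at least 1.5-fold higher, against 6.82% of all genes. Between S473A and wt the ends of the list were THBS1 (48.9, 45.4 and 55.9 RPKM) and AMOTL1 on the low side and INHBA and TGM2 (128, 136 and 125 RPKM) on the high side. For S473D against wt, at the low end lay the cyclin gene CCND1 (96.7, 94.9 and 74.0 RPKM) and AJUBA (28.7, 29.1 and 22.1).

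The actin-regulated factors MRTF and SRF share several target genes with YAP including CTGF, CYR61 and ANKRD1. Those 3 were left out of a list of further targets, which also holds the factor genes SRF, MKL1 and MKL2 themselves. Of the 14 genes of this list that passed the filter, 11 were lower in S473D than in wt and 3 higher. The median was -0.28, and 11 of the 14 lay below the median of all genes. With the trends removed it was -0.23 over the 12 genes with a transcript, which leave out MKL1 and MKL2. Of these 12, 7 lay below the median of all genes. The factor genes SRF (-0.19), MKL1 (-0.31) and MKL2 (-0.46) are counted among those lower. The calponin gene CNN2 (33.5, 36.7 and 23.4 RPKM) and the adhesion gene ZYX (57.6, 59.9 and 41.1) had the lowest differences. The highest was FHL2 at 54.3, 54.6 and 72.6 RPKM, followed by MYL9 at 16.1, 16.6 and 17.5. On log2(RPKM + 1) none of the 14 was 1.5-fold apart between S473D and wt. Of all genes tested, 6.82% were that much higher and 3.23% that much lower. CNN2 was at least 1.5-fold lower in S473D than in S473A (-0.63), where 9.85% of all genes were that far apart in either direction. By RPKM alone MKL2 (3.76, 3.93 and 2.46 RPKM) was 1.53-fold higher in wt than in S473D. S473A differed from wt by a median of 0.03, with TAGLN (-0.30) and TPM1 (-0.06) lowest and CNN2 (0.13) and MKL1 (0.07) highest.

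**Figure D5:**
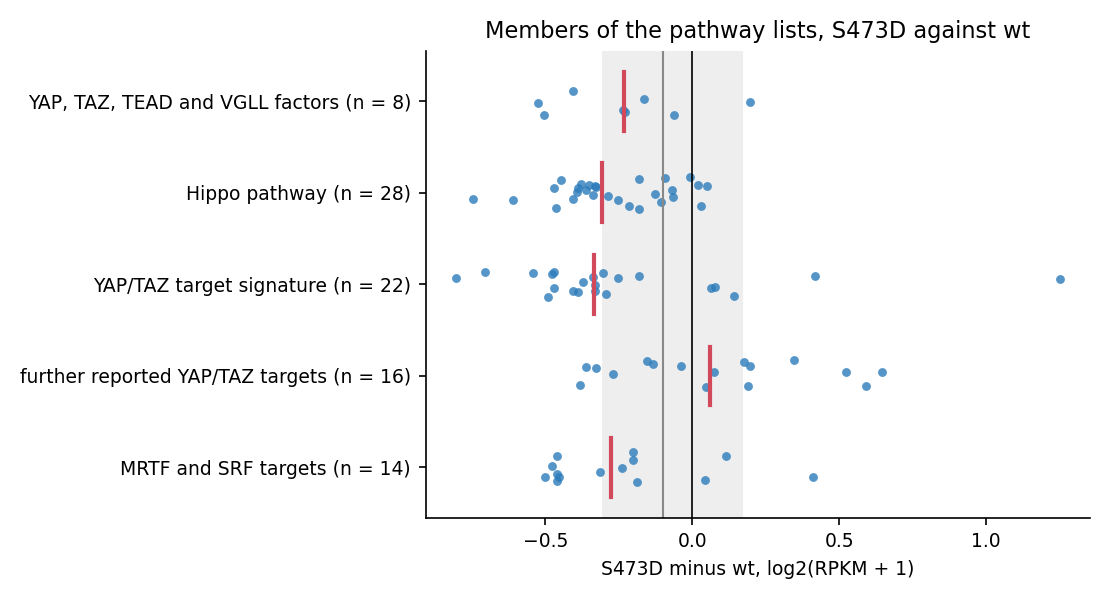
Difference between S473D and wt on log2(RPKM + 1) for the genes of 5 lists that passed the filter, 1 point per gene (vertical position within a list is random). Red bars are list medians, the grey line and band are the median (-0.10) and the range between the quartiles of all genes, and the further targets are the list whose median, 0.06, lies above 0.

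The genes most like a member in their pattern were those whose differences S473A minus wt and S473D minus wt lay nearest on the plane of the 2 values, over 3 libraries and among the 8127 genes that averaged 5 RPKM or more. For ANKRD1 these were COX7A2 (distance 0.048), CKLF (0.057) and LINC00493 (0.076). For CTGF they were SEL1L (0.0011), ARHGAP10 (0.0029) and RALB (0.0040), and for ASAP1 RIN3 (0.035), SCAMP4 (0.037) and EXT1 (0.040). Distances were smallest for CTGF, whose small differences fall where most genes lie. The likeness rests on 3 libraries and was given as a description.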

How the data were processed

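Total RNA from 3 libraries, 1 each for wt, S473A and S473D, was extracted with TRIzol and sequenced on libraries from a standard Illumina preparation, per the labels' protocols. Bowtie, Partek and hg19 are named in the submitters' processing notes; no version, annotation or counting rule is given in the sources used here. The authors' deposited values are log2 of RPKM, with 0.1 added, judged from the lowest value of each column. RPKM was recovered by undoing this.

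Of 19076 lines, 27 whose symbols were dates or occurred more than once were left out. Genes averaging 1 RPKM or more were kept, without short RNAs, which left 11578. Differences were taken on log2(RPKM + 1) and counted by 1.5-fold. With 1 library per group no test was run. Depth was estimated from low RPKM values times GENCODE release 29 transcript length. Whole reads, within 2%, resulted for 44.5% to 45.7% of such values, so depths, read numbers and intervals are estimates. Trends were removed by lowess (fraction 0.2, 2 rounds, statsmodels 0.14.6) for the 10786 genes with a transcript. The steps were run on simulated reads with known fold changes, a known scale and a known length trend. No GC trend and no spread between cultures was simulated, so these were not tested.

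Named were all members, all TEAD and measured VGLL genes, all signature genes and paralogues, the 2 highest and 2 lowest of each other list in each comparison, and the 3 nearest patterns of ANKRD1, CTGF and ASAP1. LATS1, STK4 and the chromosomal neighbours singled out were named after their values were seen. Members and lists were chosen with earlier results of these data known. Alternatives were pseudocounts, filters, centring, scaling, a 2-fold size and trend removal. VGLL1 and VGLL2 were not analysed here. One gene that this rule names is not reported here.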

Additional observations from a re-analysis of the deposited data

How the results depend on the processing

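No paired analysis was possible because each group has 1 library, and for the same reason no library could be left out. At a 2-fold size 1 member, ANKRD1, was apart in S473D from wt and from S473A, in place of 3. Of all genes 0.993% were as much higher in S473D than in wt, and the share against S473A was not computed. With trends removed the difference of ANKRD1 from wt was 0.95, under 2-fold, and from S473A 1.05, past it. The median of the 22 signature targets between S473D and wt, -0.33, was -0.23 when centred on the median of all genes or scaled by the trimmed mean (TMM) method, -0.21 with length and GC trends removed and -0.21 with the longest transcript of each gene, an alternative added after seeing the data. Between S473D and S473A, where it was -0.31, those values were -0.21, -0.22, -0.22 and -0.24, and it was -0.36 with a pseudocount of 0.1. Between S473A and wt it was -0.01 under all settings run. Members kept their sign under pseudocounts, centring and scaling (10 of 10 in each comparison). With trends removed 9 of 10 did in both comparisons with S473D, AMOTL2 being the exception (10 of 10 against S473A with longest transcripts). Between S473A and wt, counting intervals of 7 members' ratios held 1 at the estimated depths.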

Other observations

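The nearest protein-coding genes on either side of each member that passed the filter were looked up in the RefSeq annotation, as names only. Of 20 such neighbours 10 were higher and 10 lower in S473D than in wt, with a median of 0.03. Of all genes tested 60.7% were lower, with a median of -0.10. None of the 20 was at least 1.5-fold lower, a size that 3.23% of all genes reached. ANKRD1, the member above wt, lies between RPP30 (13.6 RPKM in wt, 13.1 in S473A, 18.9 in S473D) and PCGF5 (17.0, 15.8 and 16.4 RPKM). CRIM1 lies next to FEZ2 (61.4, 64.2 and 85.4 RPKM), which was higher in S473D where CRIM1 was lower. AXL lies next to HNRNPUL1 (104, 103 and 70.0 RPKM), lower in S473D as AXL was. WWTR1 and AMOTL2 have as neighbours the 2 genes of the 20 that were at least 1.5-fold higher in S473D (6.82% of all genes were), the tetraspanin-like TM4SF1 (87.2, 85.1 and 132 RPKM) and ANAPC13 (43.6, 44.8 and 70.8 RPKM), a subunit of the anaphase-promoting complex.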
